A study of Mus musculus with 3 samples.

Results

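The cells described here are the non-cycling suprabasal cells of 1 total epithelium library from dorsal skin of mouse embryos at E14.5. They were selected on measured values: a cell was included when Krt1, Krt10 and Krtdap together reached a score S of at least 20 per 10000 of its unique molecular identifiers (UMIs, each marking 1 captured RNA molecule) and Mki67 and Top2a together gave at most 1 UMI. Of the 1601 cells in the library, 97 met both conditions (6.06%, exact binomial 95% interval 4.94 to 7.34%), out of 4683 cells in the series. The cells were ordered in 3 bins of S, with 11 cells at 20-60, 23 at 60-150 and 63 above 150, and the 3 genes that make up S were left out of all levels. They were set beside a reference of 407 cells of the same library with S below 20 and at most 1 UMI of Mki67 and Top2a, from which 42 cells with 5 or more UMIs of placode markers and 1 with 5 or more of melanoblast markers had been removed.

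The study profiled wild-type (WT) C57BL/6JOlaHsd embryos, an inbred strain, with 1 library of sorted live epithelium and 2 libraries of cells sorted as positive for MAdCAM-1, a surface protein of hair placodes. All 3 libraries carried the same genotype, age and strain, no treatment was given, and each was made from the pooled epithelial sheets of 3 to 4 littermates, so single embryos cannot be told apart. The sheets were parted from the mesenchyme with Dispase II, freed into single cells with TrypLE and run on the 10x Genomics 3' v2 system. The members come from 1 library, so there is no replicate: intervals below cover counting error only, no test was run, and the order is an order among cells of 1 pool and not a time course of any cell.

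Embryonic epidermis begins as a basal layer that expresses the keratins Krt5, Krt14 and Krt15 and holds on to the basement membrane through integrins. As cells leave this layer they lose those genes and switch on Krt1 and Krt10, under regulators such as Grhl3, Ovol1, Zfp750 and Notch signalling, and later make the lipids and crosslinked proteins of the skin barrier. At mid-gestation a thin outer periderm covers these layers, and the cells just above the basal layer can still divide.

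The label was checked on 2 marker genes that were not used in the gate. Zfp750, a transcription factor needed for epidermal differentiation, stood at 14.8 CPM (UMIs of the gene per 1000000 UMIs) in the reference and at 106, 93.9 and 144 CPM in the bins 20-60, 60-150 and above 150. Lgals3, which encodes galectin-3, stood at 12.2, 25.2, 107 and 739 CPM in the same order. Zfp750 was higher in all 3 bins than in the reference, by most of its range already in the first. Lgals3 was higher in the upper 2 bins, but at 60-150 1 cell held 47.9% of its UMIs. In the first bin it had 5 UMIs, 80% of them in 1 cell, and a ratio to the reference of 2.07 with an interval of 0.656 to 5.01, so it does not mark the cells of that bin. Of the basal markers, Krt5, Krt14 and Krt15 were not lower in the first bin than in the reference, as given below, while Trp63 and Itgb4 were. Among these markers the name suprabasal therefore rests, for the first bin, on the gate and Zfp750. The periderm-type genes Krt8, Krt18 and Krt6a were at 0 UMIs in the bins 20-60 and 60-150, which allows levels of up to 15.1 and 6.70 CPM. In the bin above 150 Krt8 had 1 UMI and the other two had 0, which allows up to 2.37 CPM. The 7 melanoblast markers summed to 5.04 to 13.4 CPM per bin, and no member held 5 or more placode or melanoblast UMIs. The same gate held 3 and 5 cells in the placode-enriched libraries, too few to fill the bins. The total epithelium library shared 1 cell barcode with each of the others, and 0 of these were members.

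The edge of the gate cut through a continuous range of S. The 5 non-cycling cells just outside had S of 17.1 to 18.4 and the 5 just inside 20.2 to 26.0. Between the first and second bins there was a gap, with 53.1 as the highest value below 60 and 70.7 as the lowest above it. At the upper edge the neighbours stood at 149.8 and 152.0, so that edge divides a dense stretch of cells. Cells with 5 or more melanoblast UMIs, which should lack these genes, had a median S of 5.29 (range 0.661 to 9.15, 21 cells), and the reference a median of 6.57. Median depth was similar among the groups, at 18367 UMIs in the reference and 18374, 20650 and 21326 in the bins. The summed UMIs behind the levels differed far more, at 198272, 447460 and 1267441 in the bins and 7381293 in the reference, so 1 UMI weighed 5.04 CPM in the first bin and 0.789 CPM in the last.

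The share of non-cycling cells depended on S. At most 1 UMI of Mki67 and Top2a was found in 450 of 1306 cells with S below 20 (34.5%, exact binomial 95% interval 31.9 to 37.1%), in 11 of 55 at 20-60 (interval 10.4 to 33.0%), in 23 of 127 at 60-150 (18.1%, 11.8 to 25.9%) and in 63 of 113 above 150 (55.8%, 46.1 to 65.1%). After each cell was thinned to 10000 UMIs, with 11, 2, 2 and 6 shallower cells left out, the shares were 48.4%, 34.0%, 38.4% and 74.8%. In both counts the class above 150 had the largest share and the classes at 20-60 and 60-150 the smallest. Most cells that had entered the range of S from 20 to 150 thus carried cycling transcripts, and the 97 members are the minority without them at the low end and the majority at the high end.

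**Figure D1:**
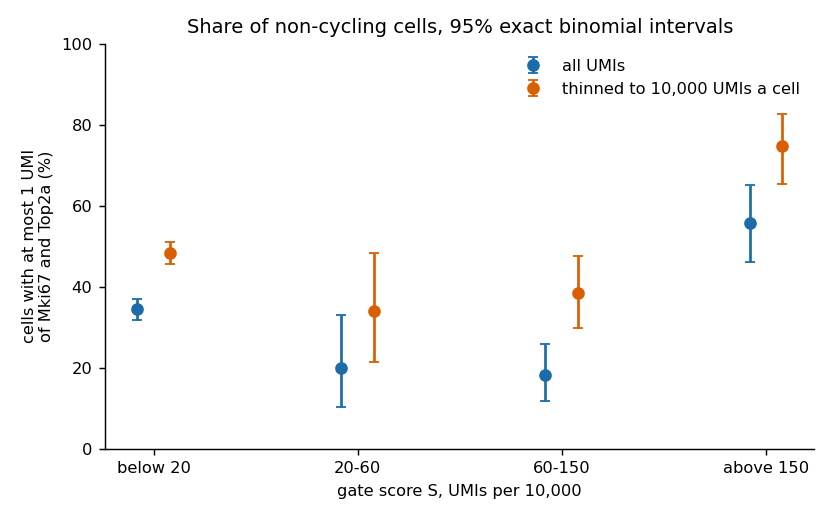
Share of cells with at most 1 UMI of Mki67 and Top2a (vertical axis, percent) in 4 classes of S (horizontal axis), for all UMIs and after thinning each cell to 10000 UMIs; bars are exact binomial 95% intervals. The class above 150 stood highest in both, at 55.8% and 74.8%.

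Among the genes with enough UMIs to be compared, a change along S of at least 2-fold was seen in a minority. Of 5350 genes with a mean of at least 20 CPM over the bins, 496 (9.27%) were at least 2-fold higher above 150 than at 20-60 and 570 (10.7%) at least 2-fold lower. Against the reference, 521 of 5374 genes (9.69%) were at least 2-fold higher in the bin above 150 and 425 (7.91%) at least 2-fold lower. Those 5374 genes had a mean of at least 20 CPM over the reference and the bins. A gene under 20 CPM in the reference thus passed only through the bins and could not be called lower. Likewise, one under 20 CPM in every bin passed only through the reference and could not be called higher. The list shares below are partly set by this filter. Below, "rose" and "fell" stand for a difference of at least 2-fold between the reference and the bin above 150, and each such gene is placed at the step with its largest change: the entry step (reference to 20-60), the middle step (20-60 to 60-150) or the late step (60-150 to above 150). For this, levels under 15.1 CPM (3 counts in the smallest bin) were first raised to that floor, so a step can differ from the one the printed levels give. Of the genes that rose, 211 (40.5%) had the largest step at entry, 194 (37.2%) in the middle and 116 (22.3%) late. Of those that fell, 109 (25.6%) had it at entry, 203 (47.8%) in the middle and 113 (26.6%) late. A level of 20 CPM is 3.97 UMIs in the bin of 11 cells, and 399 of the 496 higher genes (80.4%) had fewer than 10 UMIs there, so the step of a low gene is loosely fixed. On the measured levels, with no floor, the same rising genes numbered 250 at entry (48.0%), 186 in the middle (35.7%) and 85 late (16.3%), and the falling genes 91, 199 and 135. Of the genes given below, the largest measured step of Cdkn1a, Dsg1a, Elovl4, Notch3, Sdr16c6, Sp6 and Tgm1 was entry, and that of Itga6, Rora, Sult2b1 and Tmem45a the middle, where the floor places them at another.

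Listed differentiation factors rose mostly at the entry step. Of the 37 on the list 20 passed the filter, of which 15 rose (75% against 9.69% of all genes) and 2 fell (10% against 7.91%). The largest step was at entry for 12 of the 15, against 40.5% of all rising genes. Grhl3 (GRCm38 chromosome 4, 135541887 to 135573632), a grainyhead-family activator of barrier genes, stood at 30.5 CPM in the reference and 378 CPM in the bin 20-60, a ratio of 12.4 (95% counting interval 9.43 to 16.2). It then stood at 105 and 156 CPM, so the bin above 150 was 2.42 times lower (1.83 to 3.17) than the first bin. In the 11 cells of the first bin Grhl3 ranged from 0 to 929 CPM with a median of 256 CPM, and 1 cell was at 0. Across the 23 cells of the next bin the median was 109 CPM and 294 CPM the highest, so the bins overlapped, with 4 of the 11 first-bin cells above every cell at 60-150. Above 150 the median was 154 CPM and the highest cell had 716.5 CPM, more than most first-bin cells.

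Other factors climbed and stayed. Zfp750 was 7.17 times its reference level in the first bin (4.27 to 11.5), and its bin above 150 was 1.36 times the first (0.861 to 2.24), an interval that includes no change. Ovol1, a zinc-finger repressor of the progenitor state, went from 8.81 to 60.5, 64.8 and 136 CPM, and Dlx5, a homeobox factor, from 4.47 to 35.3, 60.3 and 69.4 CPM. Klf5 stood at 99.0, 333, 284 and 321 CPM and Cebpa, which restrains keratinocyte growth, at 54.3, 176, 409 and 459 CPM. Gata3 and Klf4, both required for a normal epidermal barrier, rose less at entry, with first-bin ratios of 1.77 and 1.99. Grhl1, a relative of Grhl3, stood at 6.23, 20.2, 71.5 and 145 CPM, with its largest step in the middle, where Grhl3 was past its highest level. This later place is loosely fixed, since Grhl1 was at 0 in most first-bin cells. It kept its step in 14 of the 19 alternatives of the closing section, and in the cycling cells its largest step was at entry. Barx2 had its largest step late, and Rora too once the floor was applied.

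The factors that fell were Trp63, the master regulator of stratified epithelium, at 281, 161, 134 and 110 CPM, and Tfap2b at 236, 187, 84.9 and 50.5 CPM. Trp63 thus had its largest fall at entry. Id2, an inhibitor of helix-loop-helix factors, rose at entry, from 12.5 to 80.7, 64.8 and 91.5 CPM, whereas its relative Id3 stood at 234, 252, 80.5 and 45.8 CPM and fell in the middle step.

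Of 28 listed Notch genes 12 passed the filter, 7 rose (58.3% against 9.69% of all genes) and 0 fell. The largest step was at entry for 5 of the 7, against 40.5% of all rising genes, and for 6 of the 7 on measured levels. Nrarp, a feedback target of Notch, stood at 38.1 CPM in the reference and 318, 252 and 357 CPM in the bins, 8.35 times higher at entry (6.25 to 11) and nearly level afterwards (ratio of the last to the first bin 1.12, 0.863 to 1.49). Hes1, another target, went from 228 to 686, 480 and 615 CPM, and Jag1, a ligand, from 24.4 to 65.6, 105 and 68.6 CPM. The receptors differed among themselves. Notch1 peaked in the first bin (53.9, 227, 139 and 79.7 CPM), and Notch3 stood highest in the upper 2 bins (2.44, 25.2, 62.6 and 59.2 CPM). Its largest measured step was entry (10.3 times, against 2.48 in the middle). Notch2 had its largest step late (11.4, 15.1, 24.6 and 48.1 CPM). The last bin of Notch1 was 2.85 times lower than the first (1.96 to 4.08), so Notch1 did not rise by the definition used here.

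In the cadherin and desmosome list 19 of 30 genes passed the filter, 11 rose (57.9% against 9.69% of all genes) and 2 fell (10.5% against 7.91%). Of the 11, 9 had their largest step at entry, against 40.5% of all rising genes. Pvrl4, the adhesion molecule nectin-4, stood at 13.7 CPM in the reference and 141, 197 and 294 CPM in the bins (first-bin ratio 10.3, 6.54 to 15.8). A Pvrl4 UMI was found in 72.7%, 87.0% and 100.0% of the cells in the bins and in 15.5% of the reference, and with cells thinned to 10000 UMIs in 55.6%, 81.0% and 96.6% against 10.8%. Of 21 cells with melanoblast markers 0 had one, which allows a share of up to 14.3%. Dsc3, a desmosomal cadherin, went from 15.3 to 106, 134 and 172 CPM, Jup, or plakoglobin, from 112 to 348, 492 and 526 CPM, and Perp, a desmosome membrane protein, from 978 to 2083, 3793 and 4165 CPM. Cadherins switched: Cdh1 (E-cadherin) stood at 72.9, 166, 219 and 166 CPM, and Cdh3 (P-cadherin), a basal cadherin, at 61.2, 20.2, 20.1 and 14.2 CPM. Dsg1a, the desmoglein of upper layers, whose neighbouring copies are near-identical so that its counts are uncertain, stood at 2.85, 20.2, 89.4 and 133 CPM, 7.09 times higher at entry and 4.43 times in the middle step.

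**Figure D2:**
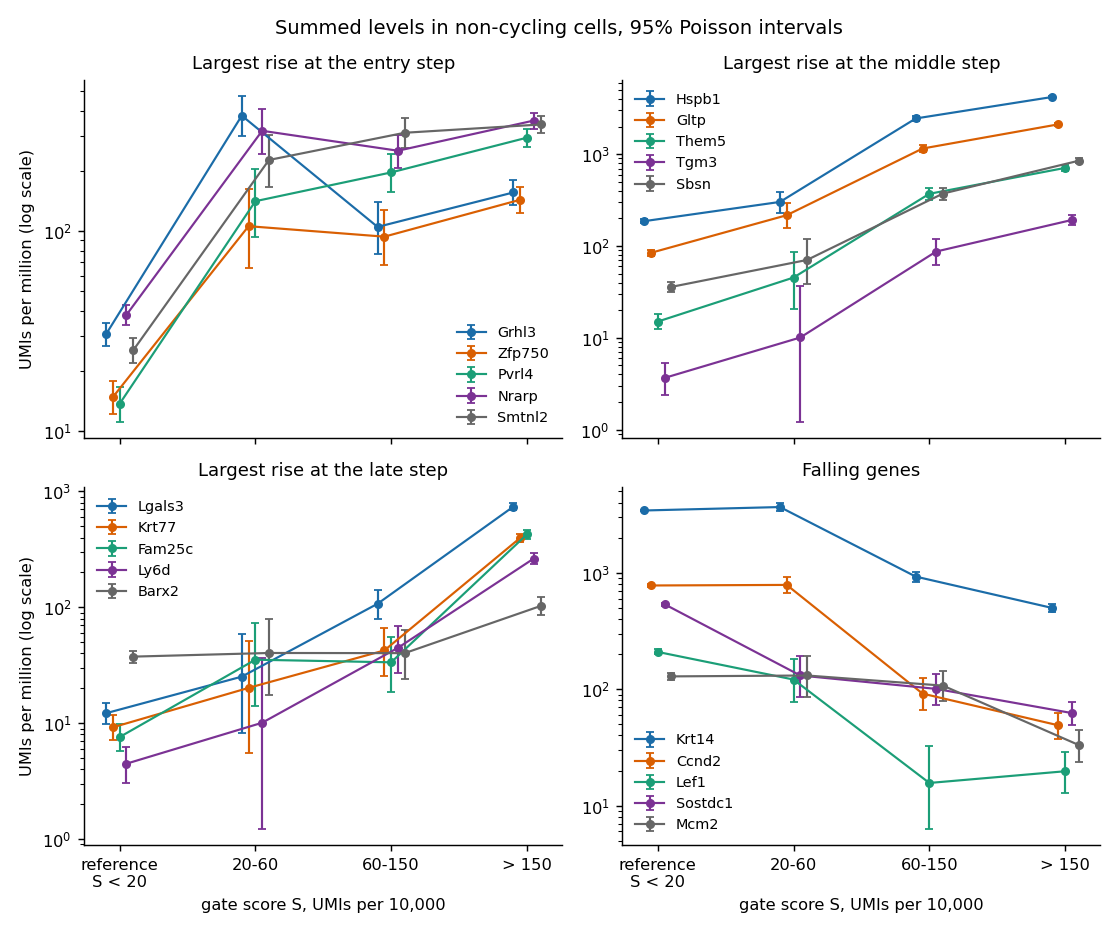
Summed levels (vertical axes, CPM, log scale) in the reference and the 3 bins of S (horizontal axes) for 20 genes grouped by step, with 95% Poisson intervals. Grhl3 stood highest in the bin 20-60 at 378 CPM, whereas Lgals3 passed 107 CPM only above S of 150, where it reached 739 CPM.

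Other genes named by size at the entry step were Smtnl2, a smoothelin-like protein (25.3, 227, 311 and 342 CPM), and Hebp2, a heme-binding protein (16.4, 141, 125 and 136 CPM), which reached its final level in the first bin. Capns2, a small calpain subunit, stood at 156 CPM in the first bin, from 19.6 CPM in the reference, and at 404 and 849 CPM in the later bins. In the first bin 1 cell had 808.4 CPM of Capns2 and the rest 0 to 243.8 CPM, so that level leans on 1 cell. Mmp2, a gelatinase, stood at 13.1, 80.7, 139 and 76.5 CPM, highest at 60-150.

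The basal keratins had not fallen in the first bin. Krt14 stood at 3430 CPM in the reference and at 3672, 928 and 500.2 CPM in the bins, a first-bin ratio of 1.07 (0.993 to 1.15), followed by a 3.96 times lower level at 60-150 (3.50 to 4.48). Krt15 stood at 2546, 3046, 592 and 401 CPM and Krt5 at 1717, 2370, 880 and 511 CPM. Among the 11 cells of the first bin Krt14 ranged from 151 to 5772 CPM with a median of 3463 CPM, close to the reference median of 3297 CPM. Above 150 the highest cell had 1290 CPM, and 10 of the 11 first-bin cells lay above it. Krt14 and Grhl3 were found together in most cells of the first bin: 9 of the 11 had over 1500 CPM of Krt14 and over 150 CPM of Grhl3, levels chosen after the values were seen. The 1 member called a doublet is among these 9. Without it 8 of 10 cells passed both levels, and the bin stood at 3804 CPM of Krt14 and 401 CPM of Grhl3. Doublets that the caller missed cannot be told apart from single cells here. Nrarp ranged from 0 to 875 CPM over the 11 cells with a median of 350 CPM, and Notch1 from 0 to 346 CPM with a median of 272 CPM, each with 1 cell at 0.

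**Figure D3:**
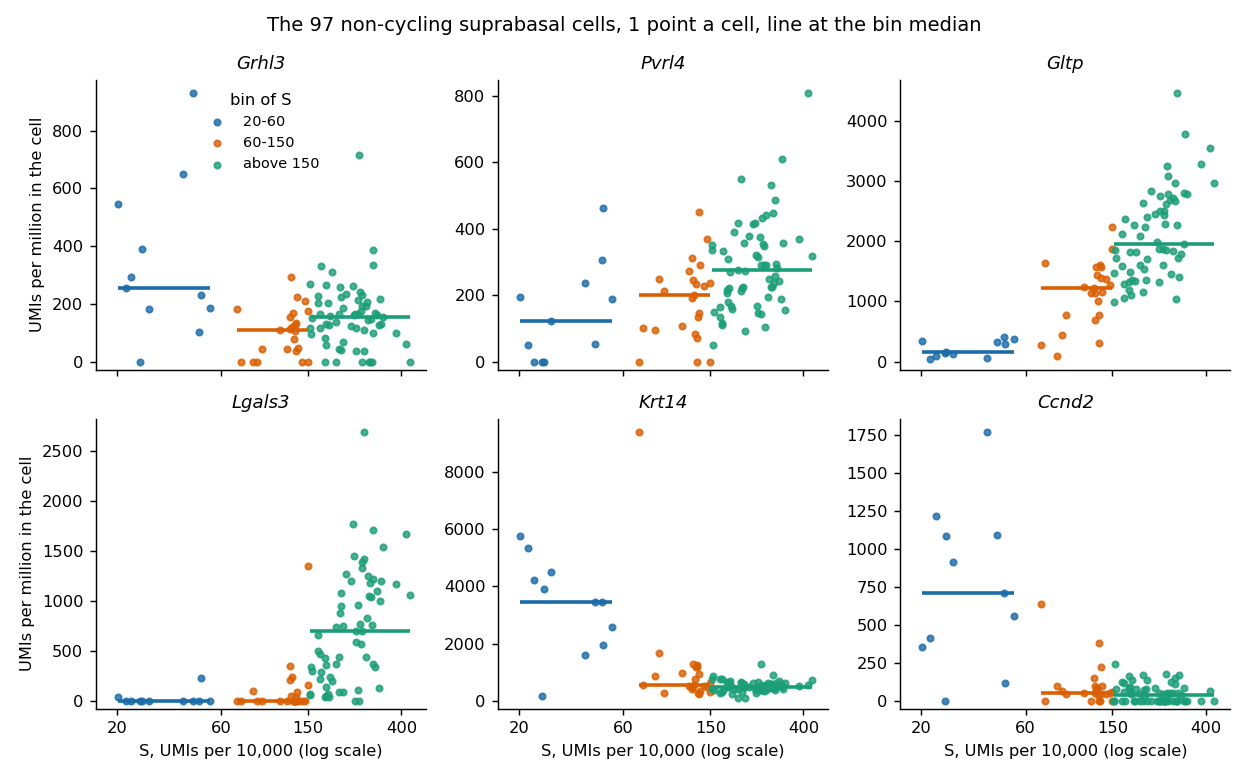
Level of 6 genes in each of the 97 member cells (vertical axes, CPM in the cell) against S (horizontal axes, log scale), coloured by bin, with a line at each bin's median. Grhl3 had its highest median in the first bin, at 256 CPM against 108.5 and 154 CPM in the later bins, with overlap among cells. The medians of Krt14 and Ccnd2 dropped between the first and second bins. Lgals3 had a median of 697 CPM above 150 against 0 CPM in both lower bins.

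Of the 36 genes on the basal keratin and adhesion list 14 passed the filter. Of these, 13 fell (92.9% against 7.91% of all genes) and 0 rose. The middle step was the largest for 9 of the 13, against 47.8% of all falling genes. Several attachment genes had lower levels in the first bin than in the reference, though most rest on few UMIs there. Itga6, the integrin that anchors hemidesmosomes, stood at 52.8, 25.2, 6.71 and 10.3 CPM. Itgb1 stood at 99.6, 55.5, 35.8 and 17.4 CPM, and Col17a1, a hemidesmosome collagen, at 66.2, 45.4, 8.94 and 11.8 CPM. In the first bin 25.2 CPM is 5 UMIs (interval 8.19 to 58.9 CPM) and 45.4 CPM is 9 UMIs (20.8 to 86.2 CPM). These intervals include the reference levels of Itga6 and Col17a1, so neither is read as lower at entry. Itgb4, the partner of Itga6, had 1 UMI in the first bin (5.04 CPM) against 48.2 CPM in the reference. Bcam, a laminin receptor, went from 558 to 368, 174 and 122 CPM.

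Ccnd2 (chromosome 6, 127125162 to 127152188), a D-type cyclin, fell with the keratins. It stood at 778 CPM in the reference and 787, 91.6 and 48.9 CPM in the bins, 8.59 times lower at the middle step (6.05 to 12.4) and 16.1 times lower over the bins (11.9 to 21.9). The first-bin cells ranged from 0 to 1770 CPM with a median of 713 CPM. Above 150, 29 of 63 cells had no Ccnd2 UMI and the highest had 244 CPM. Ccnd1 was at 38.2, 40.4, 2.23 and 3.16 CPM, while Ccnd3 stood at 201, 171, 246 and 299 CPM. Cdkn1a, the cell-cycle inhibitor p21, rose from 5.83 to 20.2, 67.0 and 214 CPM. Ppp1r14c, an inhibitor subunit of a protein phosphatase, was higher in the first bin than in the reference (176 against 65.6 CPM) and then stood at 22.4 and 13.4 CPM.

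Of 39 listed Wnt genes 18 passed the filter and 13 fell (72.2% against 7.91% of all genes). Of these, 8 fell most at the middle step (61.5% against 47.8% of all falling genes). The 1 that rose was Sp6, a zinc-finger factor at 3.12, 10.1, 31.3 and 73.4 CPM. The ligands Wnt6 (412, 197, 55.9 and 57.6 CPM), Wnt3 (84.3, 40.4, 15.6 and 9.47 CPM) and Wnt10a (79.5, 20.2, 8.94 and 4.73 CPM) and the secretion factor Wls (383, 282, 114 and 125 CPM) all fell. Lef1, a nuclear effector of Wnt, stood at 209, 121, 15.6 and 19.7 CPM. Sostdc1, a secreted antagonist of Wnt and Bmp, fell earlier, from 537 to 131 CPM at entry (4.09 times lower, 2.79 to 6.28) and then 101 and 62.3 CPM. The 4 largest falls at entry by the fixed rule were Hpgds, a prostaglandin D synthase (101 to 15.1 CPM), Cav1, a caveola protein (90.6 to 15.1 CPM), Hmga2, a chromatin protein (113 to 20.2 CPM), and Apoe, a lipid carrier (76.3 to 10.1 CPM). With 2 to 4 UMIs each in the first bin their ratios are wide, for Apoe 7.56 times lower with an interval of 2.08 to 62.6.

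Other genes named for the size of their fall had mixed roles. Sparc, a matrix glycoprotein, stood at 619, 288, 55.9 and 42.6 CPM, Pdgfa, a growth factor, at 408, 217, 26.8 and 35.5 CPM, and Dcn, decorin, at 556, 202, 22.4 and 55.2 CPM. Cald1, an actin-binding protein, fell 11.1-fold over the bins (6.50 to 19.4), from 202 to 18.1 CPM. Ctsl, a lysosomal protease, stood at 286, 176, 35.8 and 19.7 CPM, Lmo1, a LIM-only cofactor, at 449, 292, 84.9 and 53.6 CPM, Bmp7, a Bmp ligand, at 106, 111, 42.5 and 18.9 CPM, and Tnfrsf19, a receptor also known as Troy, at 122, 85.7, 33.5 and 15.0 CPM. The 8 listed fibroblast markers measured, of which Dcn is one, summed to 874, 605, 295 and 283 CPM, with 4 of the 8 at 0 in each bin. Their part in the values of Dcn and Sparc was not tested.

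Of 43 listed barrier lipid genes 16 passed the filter, 12 rose (75% against 9.69% of all genes) and 0 fell. Members such as Sdr16c6, Dgat2 and Acsl1 passed only through the bins, so these shares are partly set by the filter. With the floor, 0 of the 12 had the largest step at entry, 8 in the middle and 4 late. On measured levels these were 3, 6 and 3, against 48.0%, 35.7% and 16.3% of all rising genes, so the absence from the entry step rests on the floor, which was adopted after the data were seen. Gltp (chromosome 5, 114669490 to 114690935), a glycolipid transfer protein, stood at 84.4 and 217 CPM in the reference and first bin and at 1155 and 2120 CPM in the later bins. Its cells ranged from 51.3 to 407 CPM in the first bin, from 95.9 to 2233 CPM at 60-150 and from 994 to 4456 CPM above 150, so the first and last bins did not overlap. Elovl4, which extends very long fatty acids for ceramides, went from 7.72 to 55.5, 246 and 608 CPM (7.18 times at entry and 4.43 in the middle), and Elovl1 from 30.2 to 35.3, 123 and 259 CPM. Sptlc3, a subunit of the enzyme that starts sphingolipid synthesis, stood at 8.40, 10.1, 46.9 and 118 CPM, Abhd5, a lipase activator, at 20.7, 25.2, 76.0 and 99.4 CPM, Acsl1, which activates fatty acids, at 6.77, 20.2, 69.3 and 182 CPM, and Dgat2, which makes triglycerides, at 4.74, 15.1, 71.5 and 211 CPM. Sdr16c6, a dehydrogenase, stood at 2.17, 20.2, 64.8 and 226 CPM, 9.31 times higher at entry and 3.48 times at the late step. Summed over the whole list, the level was 453, 691, 2275 and 4610 CPM.

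The largest middle-step rises were Them5, Hspb1, Smagp and Slc7a11. Hspb1, the small heat shock protein of suprabasal layers, went from 187 and 303 CPM to 2456 and 4200 CPM, 8.12 times higher at the middle step (6.26 to 10.7). Them5, a thioesterase, stood at 15.0, 45.4, 371 and 711 CPM. Slc7a11, the cystine transporter, had 0 UMIs in the first bin and 98.3 CPM in the next, at least 6.50-fold higher against a floor of 3 counts in the bin. Rdh12, a retinol dehydrogenase, was also at 0 there and reached 87.2 and 257 CPM. Smagp, a small membrane glycoprotein, stood at 5.42, 10.1, 114 and 202 CPM, with 2 UMIs in the first bin and a middle ratio of 11.3 (2.97 to 95.8).

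Of 51 listed structural genes of the suprabasal layers 20 passed the filter and 19 rose (95% against 9.69% of all genes). Members such as Evpl, Tgm1 and Tgm3 passed only through the bins, so the 95% is partly set by the filter. By step, 8 rose at entry, 5 in the middle and 6 late (42.1%, 26.3% and 31.6%), near the 40.5%, 37.2% and 22.3% of all rising genes. Dmkn (dermokine) entered early at 480, 1160, 2407 and 3778 CPM, as did Ppl (periplakin) at 11.9, 101, 73.8 and 93.9 CPM. Its partner Evpl (envoplakin) followed in the middle at 8.40, 10.1, 51.4 and 84.4 CPM. Sbsn (suprabasin) had its largest step in the middle at 35.9, 70.6, 373 and 850.5 CPM. The crosslinking enzyme Tgm1 stood at 4.06, 20.2, 44.7 and 114 CPM, 4.96 times higher at entry and 2.56 times at the late step, and Tgm3 at 3.66, 10.1, 87.2 and 192 CPM. Lor (loricrin), a major protein of the cornified envelope, went from 16.1 and 20.2 to 49.2 and 118 CPM, and Asprv1, a protease of the upper layers, from 46.3 to 182, 306 and 942 CPM. In the first bin 1 cell stood at 1270 CPM of Asprv1 and the rest at 0 to 150.7 CPM. The placing of Asprv1 at entry thus rests largely on that cell.

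With the floor, the largest late rises were those of Fam25c, Krt77, Sult2b1 and Lgals3. Fam25c stood at 7.59, 35.3, 33.5 and 426 CPM, a late ratio of 12.7 (7.64 to 22.9). Krt77, a suprabasal type II keratin, went from 9.21, 20.2 and 42.5 to 397 CPM, a late ratio of 9.35 (5.92 to 15.7). Sult2b1, which makes cholesterol sulfate, had 0 UMIs at 20-60, 26.8 CPM at 60-150 and 226 CPM above 150. Lgals3 (chromosome 14, 47373860 to 47386167) had a late ratio of 6.89 (5.16 to 9.41). It had a UMI in 2 of 11, 9 of 23 and 61 of 63 cells (18.2%, 39.1% and 96.8%), against 19.7% of the reference and 23.8% of the 21 cells with melanoblast markers, whose median depth was 21798 UMIs. With cells thinned to 10000 UMIs the shares were 22.2%, 23.8% and 93.2%, against 11.1% and 14.3%. The first-bin share rests on 2 cells and lay below both of these in the unthinned count and above both in the thinned one, so no expression is read from it. Tmem45a, a membrane protein, stood at 3.52, 5.04, 53.6 and 256 CPM, and Ly6d, a surface protein, at 4.47, 10.1, 44.7 and 264 CPM.

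**Figure D4:**
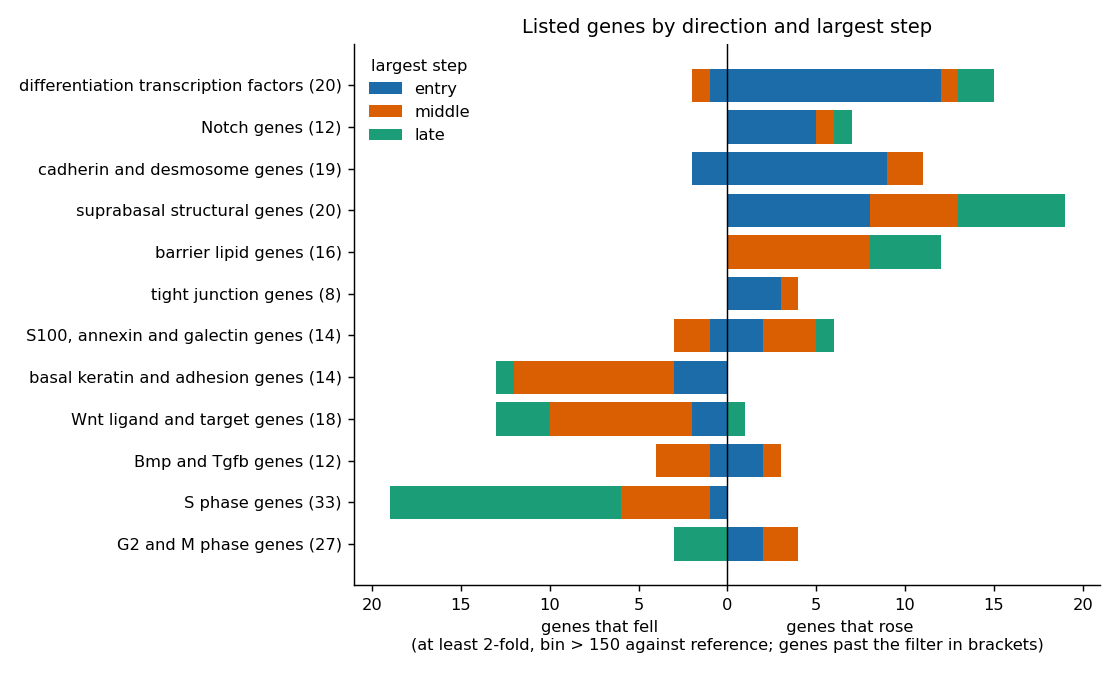
Number of genes (horizontal axis) of 12 lists that rose (right) or fell (left) at least 2-fold between the reference and the bin above 150, coloured by the step of the largest change; the number past the filter is in brackets. Rising differentiation factors were mostly at the entry step (12 of 15), barrier lipid genes at the middle and late steps with the floor of 15.1 CPM (8 and 4), and falling S phase genes mostly at the late step (13 of 19).

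Although the gate left few Mki67 or Top2a UMIs, other cell-cycle genes remained and were ordered. Of 42 listed S phase genes 33 passed the filter, 19 fell (57.6% against 7.91% of all genes) and 0 rose. The late step was the largest for 13 of the 19, against 26.6% of all falling genes. Their summed level was 3341 CPM in the reference and 3737, 2720 and 1386 CPM in the bins. Mcm2, a helicase subunit, stood at 129, 131, 107 and 33.1 CPM, Rpa2 at 109, 151, 112 and 33.9 CPM, Usp1 at 106, 151, 101 and 34.7 CPM, Dtl at 58.4, 35.3, 53.6 and 9.47 CPM, and Cdt1, which licenses replication origins, at 74.5, 60.5, 42.5 and 15.0 CPM. From 60-150 to above 150 these 5 genes were 2.83 to 5.67 times lower. Below S of 150 they varied: Cdt1 was already below the reference at 60-150, and Rpa2 and Usp1 stood above it at 20-60, with intervals (102 to 216 CPM for both) that include it.

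The G2 and M phase genes had another pattern. Their 50 genes summed to 3255 CPM in the reference and to 3087, 6266 and 2885 CPM in the bins. Of the 27 past the filter 4 rose (14.8%) and 3 fell (11.1%), near the 9.69% and 7.91% of all genes. Hmgb2, a chromatin protein of dividing cells, was at 663, 570, 1475 and 482 CPM, Tubb4b, a tubulin, at 267, 252, 903 and 586 CPM, and Ccnb2, a mitotic cyclin, at 82.0, 60.5, 188 and 53.6 CPM. The bin 60-150 was therefore the highest in G2 and M genes, and below the 7309 to 9891 CPM of the cycling cells across the same groups. By the fixed rule for genes highest at 60-150, Hmgb2, Rangap1, Parp2, Lsm2 and Mmp2 were named. Cells with low Mki67 and Top2a that still carry other mitotic transcripts cannot be told apart here from cells that never entered the cycle, so the gate, not the cell state, defines "non-cycling".

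The 198 cycling cells of the library with S of at least 20 offer a comparison with cells the gate did not use. They fall into the same bins as 44, 104 and 50 cells, with median S of 33.1, 108 and 201, against 28.0, 128 and 245 in the members, so the bins are not matched exactly on S. Of the 496 genes at least 2-fold higher above 150 than at 20-60 in the members, 428 (86.3%) were also higher in the cycling cells by any amount, and of the 570 lower, 477 (83.7%) were also lower. The same shares over all genes past the filter were not counted, so how far these exceed them is not known. Among genes that rose at entry in the members, 145 of 211 (68.7%) rose at entry in the cycling cells too. These make up 50% of the 290 found in the cycling cells. Rises at the middle and late steps numbered 80 and 103 there, so entry was the most frequent step for rising genes in general.

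The middle step held 33 rising genes in both, 17.0% of the 194 in the members and 41.25% of the 80 in the cycling cells. It held 35 falling genes in both, 17.2% of 203 and 47.95% of 73. In the cycling cells 10 of 14 falling genes of the basal list had their largest step at entry, against 3 of 13 in the members. Over all genes, falls at entry, middle and late numbered 158, 73 and 126 in the cycling cells. In the members they numbered 109, 203 and 113, so a shift towards entry was not particular to this list. The keratins did not join it: Krt14 and Krt15 kept the middle step, and Krt5 had its largest fall late. Krt15 stood at 2370, 1493, 699 and 345 CPM in the cycling groups and at 2546, 3046, 592 and 401 CPM in the members. The list as a whole summed to 7033 CPM in cycling and 10380 CPM in member cells of the first bin. Lef1 was at 36.7 CPM in the cycling cells of the first bin, below the 121 CPM of the members, and Gltp at 499 CPM, above the 217 CPM of the members. Grhl3 was lower in the cycling than in the member cells there (223 against 378 CPM), and Lgals3 followed the same late course, at 13.1, 26.1, 81.6 and 433 CPM. With 11 member cells in that bin, from 1 pool, these differences have no replicate check.

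**Figure D5:**
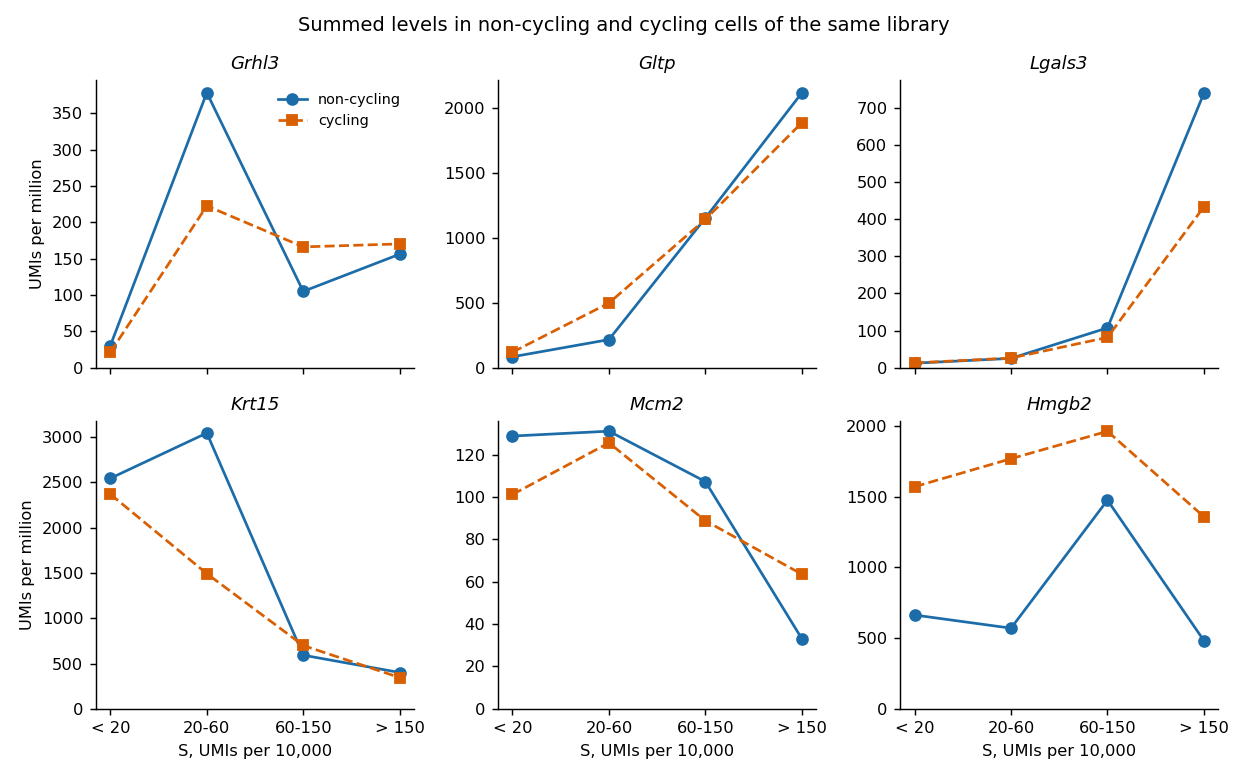
Summed levels of 6 genes (vertical axes, CPM) in the reference and the bins of S (horizontal axes) for non-cycling and cycling cells of the same library. Krt15 in the bin 20-60 was 3046 CPM in non-cycling and 1493 CPM in cycling cells, and Hmgb2 peaked at 60-150 in both.

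Some genes in the first bin rested on few cells. Krt17, a keratin of periderm and stressed or appendage epithelium, stood at 218, 988, 297 and 140 CPM. It was at 7234, 5716 and 1416 CPM in 3 of the 11 cells and at 0 to 917 CPM in the other 8. Without the 2 highest cells the bin stood at 281 CPM, whereas Krt14 moved only from 3672 to 3975 CPM and Grhl3 from 378 to 407 CPM. The cell highest in Krt17 was also the shallowest, with 6652 UMIs, and had 151 CPM of Krt14 and 1206 CPM of Calm4. The 11 listed periderm genes measured summed to 466, 1886, 1377 and 1564 CPM, Krt17 and Cldn4 among them, which other layers express too, with 5, 6 and 3 of the 11 at 0 in the bins. Cldn6, a claudin of early epithelium, stood at 14.4, 95.8, 22.4 and 7.89 CPM, whereas Cldn4 stood at 52.0, 111, 152 and 155 CPM and Cldn1 at 16.5, 5.04, 55.9 and 63.1 CPM.

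Genes of protein synthesis and respiration hardly moved. Of 83 ribosomal protein genes past the filter 0 rose and 0 fell, and of 77 respiratory chain genes 0 rose and 1 fell. Among all genes 9.69% rose and 7.91% fell. The median log2 change over all genes was 0.05 at entry, 0.03 in the middle and -0.05 late.

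Genes that rise together were also looked at in their promoters, taken from RefSeq (build GRCm38.p6, which has the coordinates of mm10) as the 250 bases before each start. Of the 521 rising genes 422 (81.0%) were matched by symbol or synonym, with 566 promoters, and of all genes past the filter 4356 (81.1%), with 5539. Of the 425 falling genes 78.4% were matched, too few for a share. The AP-1 motif, TGANTCA on either strand, to which Fos and Jun proteins bind, was in 50 of the 566 promoters of rising genes (8.83%), in 228 of the 5539 of all genes past the filter (4.12%) and in 2217 of all 32851 promoters in the table (6.75%). The Grhl motif AACCNGTT was in 1.94%, 1.55% and 1.79% of the same sets, and the Rbpj motif TGGGAA, of the Notch effector, in 21.7%, 19.5% and 21.6%. Promoters and not genes are counted, so neighbouring starts of 1 gene, as in Dmkn, can count the same match more than once. A match is a run of letters and not evidence of binding. Below are the promoters of 1 gene of each step that hold an AP-1 match, shown in capitals: Dmkn, with its largest step at entry, Sbsn, in the middle, and Fam25c, late. The match begins 89, 119 and 105 bases before the start, and for Dmkn the table gives 3 starts, of which 1 is shown. The Sbsn match, TGAATCA, is of the looser form only, and the shares above do not separate the forms.
Dmkn promoter, chr7:30763506-30763755, + strand: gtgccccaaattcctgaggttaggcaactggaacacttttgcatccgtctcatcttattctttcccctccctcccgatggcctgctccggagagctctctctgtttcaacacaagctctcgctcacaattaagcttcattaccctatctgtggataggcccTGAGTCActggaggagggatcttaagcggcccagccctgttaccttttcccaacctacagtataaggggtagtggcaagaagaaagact
Sbsn promoter, chr7:30751221-30751470, + strand: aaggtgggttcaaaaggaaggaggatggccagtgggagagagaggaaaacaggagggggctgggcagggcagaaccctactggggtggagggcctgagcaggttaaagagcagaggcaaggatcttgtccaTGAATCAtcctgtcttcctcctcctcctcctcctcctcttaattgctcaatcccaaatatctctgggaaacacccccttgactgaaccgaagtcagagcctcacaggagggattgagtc
Fam25c promoter, chr14:34355394-34355643, - strand: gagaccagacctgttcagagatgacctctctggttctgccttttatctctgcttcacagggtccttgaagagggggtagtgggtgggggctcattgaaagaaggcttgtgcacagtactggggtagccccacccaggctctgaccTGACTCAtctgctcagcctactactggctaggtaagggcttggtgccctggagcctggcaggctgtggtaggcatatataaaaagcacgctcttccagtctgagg
Of the AP-1 subunits themselves, Fos stood at 10.4, 25.2, 82.7 and 65.5 CPM and Junb at 15.6, 45.4, 35.8 and 52.1 CPM, which both rose, and Jund fell, at 108, 126, 38.0 and 33.9 CPM. All 3 are also on the list of immediate-early and heat shock genes, of which 17 passed the filter. Of these, 6 rose (35.3% against 9.69% of all genes), Hspb1 among them, and 4 fell (23.5% against 7.91%).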

How the data were processed

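Each deposited table held raw UMI counts, whole numbers with genes in rows and cell barcodes in columns per the file headers, and no normalization by the authors. The submitters' processing notes name Cell Ranger, Seurat and mm10 and give no versions. The annotation, strand setting, cell filters and handling of reads shared by near-identical genes are not stated in those notes or the other labels. Among the 14959 genes of the total epithelium table, its cells had 2123 genes or more and mitochondrial shares up to 4.98%, and all cells were kept. Scrublet (scanpy 1.11.5, expected rate 0.05) called 11 of its cells doublets, 1 of them a member, which was kept in the levels given.

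The members and all gene lists were chosen with earlier results of these data known. UMIs were summed over the cells of a group and divided by the group's total without Krt1, Krt10 and Krtdap (CPM; python 3.11.15, numpy 2.4.6, pandas 2.3.3, scipy 1.17.1). Intervals are exact Poisson for levels, exact conditional for ratios and exact binomial (Clopper-Pearson) for shares, at 95%, and cover counting error only. Genes needed a mean of 20 CPM. For calls and steps, levels were raised to a common floor of 15.1 CPM, which is 3 counts in the smallest bin. This floor was adopted after the data were seen, since the floor of 3 counts in each group that had been planned placed low genes at the entry step. Scripts were tested on simulated data with known changes. Named genes were the markers, the 12 largest rises and falls over the bins, the 4 largest of each step and direction with at most 10% of a gene's UMIs in 1 cell (30% in the bin of 11 cells, a limit raised after its size was seen), and the genes highest at 60-150. All others, and the promoters shown, were chosen after their values were seen. A few genes that the rule or the lists hold are not reported here. A comparison with the placode-enriched libraries, planned for bins of at least 10 cells, was not possible. The alternatives in the closing section changed the scaling, filter, depth, gates, bins and reference.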

Additional observations from a re-analysis of the deposited data

How the results depend on the processing

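In 19 alternatives, 120 of 150 values of the 8 gene counts stayed within 1.5 times of those reported. With a filter at a mean of 50 CPM fewer genes were tested and all 8 fell: 217 genes were 2-fold higher and 188 lower above 150 than at 20-60, rising genes numbered 140 at entry, 104 in the middle and 32 late, and falling genes 32, 93 and 67. Bins of 3 equal groups of members put 33 cells in the first. Ranked by S, Krt1, Krt10 or Krtdap they gave 294, 290, 281 and 273 genes 2-fold higher, 331, 333, 312 and 267 lower, 394, 382, 413 and 425 rising at entry, and 223, 213, 221 and 225 falling at entry. Ranked by Krt1, 67 genes rose late, and ranked by Krt10, 123 rose in the middle. Of the rising genes shared with the bins used here (93.7 to 95.8% of the 521), 46.7 to 48.8% kept their step, so the step is tied to the edges of the bins and to the 11 cells at 20-60. With cycling cells included, chosen after the data were seen, 243 genes were 2-fold higher, 334 lower, 89 rose and 83 fell in the middle. With the planned floor of 3 counts in each group, chosen as an alternative after the data were seen, 285 genes rose at entry and 90 late. Without the 2 cells highest in Krt17, 174 rose at entry and 232 in the middle. Leaving out cells of over 2 times the median UMIs, or members with placode or melanoblast markers, removed 0 members.

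Grhl3, Zfp750, Pvrl4, Smtnl2, Hebp2, Krt14, Krt15 and Ccnd2 kept their direction and step in all 19 alternatives, and Lgals3 its direction in 19 and its step in 14. Of 117 named genes 4 changed sign in their log2 ratio of the bin above 150 to the bin 20-60, under equal groups only. Ranked by S, Pvrl2 stood at 0.14, Tubb4b at -0.17 and Vim at -0.50. Ranked by Krt1 they stood at 0.087, -0.22 and -0.12, and ranked by Krt10 Pvrl2 at 0.31, Tubb4b at -0.14, Vim at -0.62 and Dsc2 at -0.14. Ranked by Krtdap Pvrl2 stood at 0.013, Vim at -0.42 and Dsc2 at -0.031. The cause was not tested. No paired analysis was possible because 1 library holds all members.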
